A study of Mus musculus with 14 samples.

Results

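The data concern 10 transcription factor genes that help to set or keep endothelial identity, measured in liver sinusoidal endothelial cells (LSECs) of aged and young mice. The genes are Gata4 and Gata2, Maf and Tfec, Sox7, Sox17 and Sox18, Tal1 and Lmo2, and Mecom. They were chosen by name: every RefSeq identifier in the count files was matched to a mouse symbol, and the targets of these genes were taken. Each gene had 1 target, which gave 10 of 23930 targets, and all 10 passed the filter on low counts that left 14168 targets for testing.

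The 14 libraries came from liver cells of female C57BL/6J wild-type mice, sorted by flow cytometry for dim CD45, high STAB2 and high CD146. The aged group held 7 libraries from mice of 10 to 11 months, 4 in experiment 2 and 3 in experiment 1. The young group held 7 libraries from mice of 8 to 10 weeks, again 4 in experiment 2 and 3 in experiment 1. The labels name no agent and no altered allele in either group. Whether each library stands for 1 animal is not stated there, so the p-values measure the spread between these libraries, which may be technical in part. Libraries carry the experiment and replicate number of their label, so that aged 1.3 is the aged library 3 of experiment 1.

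LSECs line the liver's capillaries as a fenestrated, scavenging endothelium without a continuous basement membrane. In mice the zinc finger factor GATA4 is required for this sinusoidal type of vessel, and its loss from LSECs turns them towards the continuous capillary type. MAF and TFEC are leucine zipper factors enriched in sinusoidal endothelium. SOX7, SOX17 and SOX18 form the SOXF subfamily, which shares a DNA-binding HMG box and partly overlapping duties in vessel growth. TAL1, a basic helix-loop-helix protein, and LMO2, a LIM-domain bridge that binds no DNA itself, sit in one complex with LDB1 and GATA factors in blood and endothelial cells, and MECOM, also called EVI1, is a zinc finger factor of haematopoietic stem cells and vessels.

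Related members share coding sequence, so the stretch of Gata4 and Gata2 with the most shared bases was taken from GENCODE M21 transcripts of the targeted accessions. It is shown because reads of 1 of these genes could be credited to the other only where the letters are the same. Capitals mark bases identical in both genes, and positions count from the first base of the coding sequence. In this stretch, in the zinc finger region, 101 of 120 bases (84.17%) were identical.
Gata4, coding bases 628 to 747: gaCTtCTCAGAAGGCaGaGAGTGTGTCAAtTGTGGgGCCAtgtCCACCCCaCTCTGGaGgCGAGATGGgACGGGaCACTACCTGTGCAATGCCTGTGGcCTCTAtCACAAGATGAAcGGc
Gata2, coding bases 862 to 981: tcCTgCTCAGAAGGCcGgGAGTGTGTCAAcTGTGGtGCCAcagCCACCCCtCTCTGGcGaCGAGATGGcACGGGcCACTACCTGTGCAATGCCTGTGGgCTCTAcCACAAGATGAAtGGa
Even so, the longest run of coding bases without a mismatch was 23 between Gata4 and Gata2. Among the SOXF genes it was 29 between Sox17 and Sox18, 22 between Sox7 and Sox17 and 20 between Sox7 and Sox18. Tfec shared at most 14 bases in a row with Mitf, Tal1 14 with Lyl1, Lmo2 9 with Lmo4 and Mecom 20 with Prdm16. The sources used here give neither the place of each amplicon in its transcript nor the treatment of reads that match more than 1 target. They do not name the aligner or the mismatches it allowed, so these runs cannot show whether reads were credited to a relative.

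The libraries held 6710403 to 13977361 gene reads, and members held between 33 reads (Sox17 in aged 2.2) and 34777 reads (Maf in young 2.1) in a library. Levels are given as CPM, a library's gene reads brought to one total, with scaling factors from TMM (trimmed mean of M values). The panel counts 1 short amplicon per target, so levels are compared between libraries and not between genes. The sort was checked on Stab2, Cdh5 and Clec4g, genes of sinusoidal and general endothelium. Stab2 ranged from 1653 to 2372 CPM over the 14 libraries, Cdh5 between 1633 and 3092 CPM, and Clec4g between 6490.2 and 12394 CPM. Cells were gated on STAB2 itself, so Stab2 is no independent check of the sort. Targets of taste, olfactory and vomeronasal receptors, which liver endothelium is not known to use, took 0.146 to 2.92% of gene reads in experiment 2, where aged 2.4 (2.81%) and young 2.2 (2.92%) stood far above the other 6, and 1.20 to 3.18% in experiment 1. Markers of leukocytes were unequal as well. The summed level of the 10 Kupffer cell markers ranged from 31.3 to 238 CPM in aged libraries and from 14.7 to 90.6 CPM in young ones. That of 4 B cell markers ranged from 2.50 to 191 CPM in aged libraries and from 1.55 to 45.3 CPM in young ones, and that of 6 T and NK cell markers from 5.24 to 386 CPM in aged libraries and from 2.38 to 166 CPM in young ones. Of the Kupffer markers C1qa was at 0 or 1 read in each library. The 6 hepatocyte markers summed to 332 to 4778 CPM over the 14 libraries, with a median of 941 CPM and the highest sum in aged 1.3. That library also had the lowest sum of the 4 endothelial markers (4875 CPM, against a median of 7013 CPM). In bulk RNA, fewer cells of a type and less RNA per cell cannot be told apart.

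None of the 10 lineage factors passed the age test. edgeR's quasi-likelihood test with the experiment as a term and Benjamini-Hochberg adjustment over 14168 targets called 0 of 10 members, against 0.162% of all targets (23, of which 11 were higher and 12 lower in aged libraries). Tfec was the 1 member with an unadjusted p under 0.05, a mark that 6.77% of all targets reached. Of the members DESeq2 called Tfec alone, against 1.03% of all targets, and limma-voom called none. Most differences were small: 8 of 10 members were lower and 2 (Lmo2 and Sox18) higher in aged libraries by fitted value, the median log2 fold change was −0.12 against −0.0023 over all tested targets, and without TMM scaling Maf was fitted as higher. Over all tested targets 50.4% were lower in aged libraries. The members' lean rested in part on aged 1.3: without it 5 of 10 were lower (median −0.05). With the leukocyte marker level as a term 5 of 10 were lower too (median 0.01), with Gata2, Maf and Mecom on the higher side in both fits. Most leukocyte markers were themselves higher in aged libraries, so that term can also take up part of an age difference. The 95% interval of the fold change stayed within 2-fold either way for 10 of 10 members and within 1.5-fold for 7, the exceptions being Tal1, Sox17 and Sox18. An interval of that width does not show that the levels were equal.

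**Figure D1:**
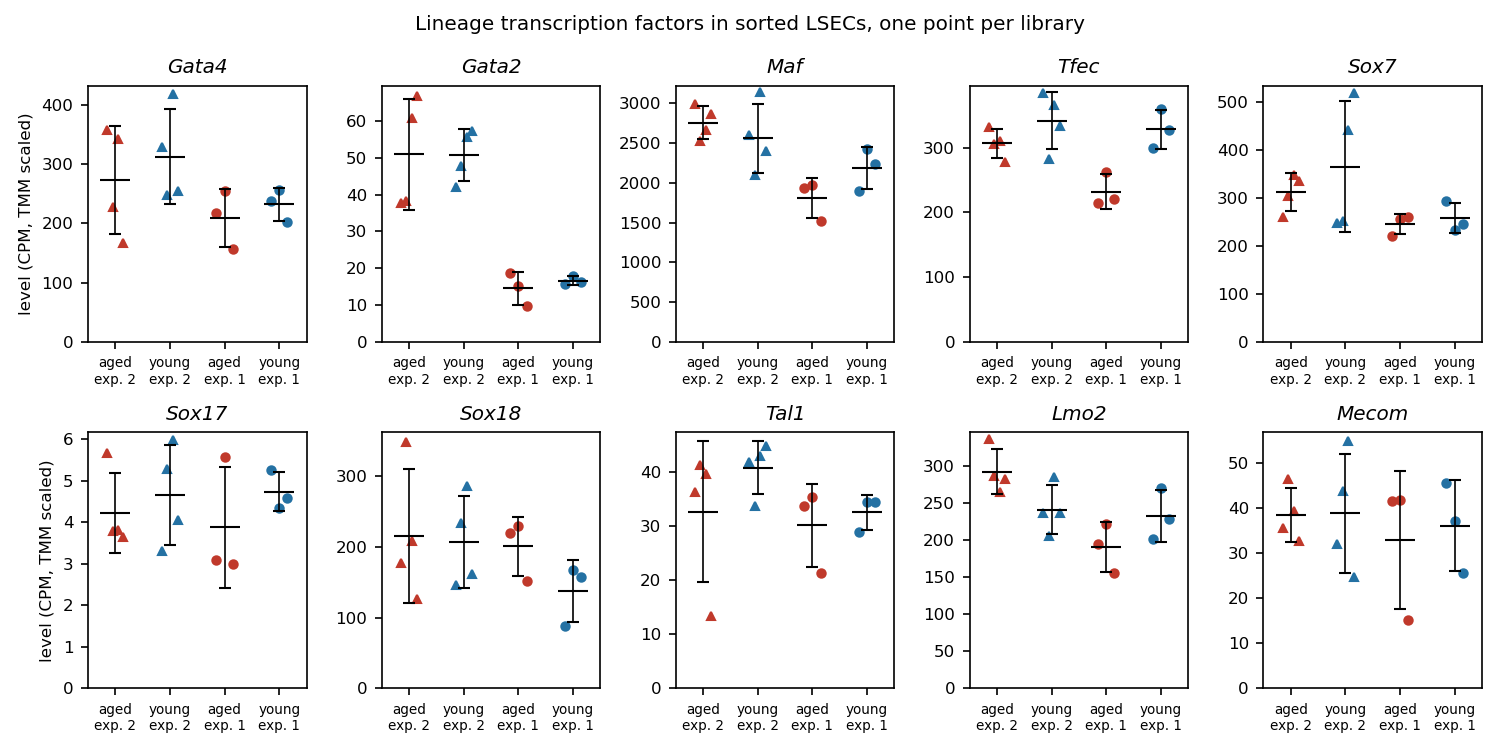
Level of each of the 10 factors in CPM after TMM scaling (vertical axes start at 0), with 1 point per library, aged libraries in red left of young libraries in blue, and experiment 2 (triangles) left of experiment 1 (circles). Horizontal bars are group means and error bars the SD over 4 libraries per age in experiment 2 and 3 in experiment 1. Aged and young points overlap in every panel except for Tfec in experiment 1, and the Gata2 points of the 2 experiments lie apart.

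Tfec encodes a member of the MiT family of basic helix-loop-helix zipper factors, a relative of MITF. In experiment 2 its level was 333, 307, 311 and 278 CPM in aged libraries 2.1 to 2.4, against 384, 283, 367 and 334 CPM in young libraries 2.1 to 2.4. In experiment 1 it was 214, 263 and 220.2 CPM in aged libraries 1.1 to 1.3, against 299, 359.7 and 328 CPM in young libraries 1.1 to 1.3. All 7 aged libraries lay below the mean of the young libraries of their experiment. The groups did not overlap in experiment 1, a separation found in 19% of all tested targets, whereas in experiment 2, where 1.37% of targets did not overlap, young 2.2 lay among the aged libraries. The mean Tfec level was 275 ± 45.6 CPM in the aged group and 336 ± 36.7 CPM in the young group (SD, n = 7 each). The fitted fold change was 0.810 (95% interval 0.696 to 0.943; log2 −0.30, SE 0.102), with an unadjusted p of 0.0101 and an adjusted p of 0.556 by edgeR. DESeq2 gave log2 −0.31 and an adjusted p of 0.0266, and limma-voom an adjusted p of 0.693. The edgeR adjusted p ranged from 0.157 to 1 over the alternatives with that tool, while the fold change stayed between −0.36 and −0.25 on the log2 scale over all alternatives. The difference in experiment 2 was −0.16 (SE 0.124) and in experiment 1 −0.50 (SE 0.144) on the log2 scale. DESeq2 called it in experiment 1 (adjusted p = 0.0146, against 0.614% of all targets), and experiment 2 minus experiment 1 gave 0.35 (SE 0.190, unadjusted p = 0.0917 by edgeR). Tfec also had the smallest spread of the 10, a biological coefficient of variation (the fitted spread between libraries beyond counting error) of 0.149, with 1.84% of all tested targets at or below it.

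Maf encodes c-MAF, the large basic leucine zipper factor of the sinusoidal programme. Its level in experiment 2 was 2988, 2523, 2663 and 2865 CPM in aged libraries 2.1 to 2.4, against 2609, 2100.1, 3139 and 2397 CPM in young libraries 2.1 to 2.4. In experiment 1 it was 1933, 1980.1 and 1522 CPM in aged libraries, against 1903, 2421 and 2235 CPM in young libraries. The ages overlapped in both experiments, with 3 of 4 aged libraries above the young mean in experiment 2 and 3 of 3 below it in experiment 1. Over both experiments the mean Maf level was 2353 ± 547 CPM in the aged group and 2401 ± 399 CPM in the young group (SD, n = 7 each). The log2 fold change of −0.05 (SE 0.131) was well within its error, and the adjusted p by edgeR was 0.9996. Like Tfec, Maf varied little between libraries of a group, with a coefficient of 0.170 against a median of 0.340 over all tested targets.

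Gata4, the factor named above for sinusoidal identity, did not differ between the ages beyond its spread. Its level in aged libraries ranged from 157 to 358 CPM with a median of 228 CPM, against 202 to 419 CPM with a median of 255 CPM in young libraries. The groups overlapped in both experiments, and 4 of 7 aged libraries lay below the young mean of their experiment. The log2 fold change was −0.17 (SE 0.183), which corresponds to a fold of 0.887 with a 95% interval of 0.675 to 1.16. The lowest Gata4 levels were in aged 1.3 (157 CPM) and in aged 2.4 (167 CPM). Aged 1.3 had the highest leukocyte and the highest hepatocyte marker level of the 14 libraries. Aged 2.4 was 1 of the 2 experiment 2 libraries rich in receptor reads. In experiment 1 the log2 difference was −0.15, and it was 0.02 without aged 1.3. The part of these libraries' composition in the Gata4 values was not tested beyond 2 fits, with the leukocyte marker level or the receptor read share as a term. In both Gata4 stayed lower in aged libraries and uncalled.

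Gata2, a related zinc finger factor of endothelium, blood progenitors and mast cells, did not differ between the ages beyond its spread either. In experiment 2 it measured 37.8, 38.2, 60.9 and 66.6 CPM in aged libraries 2.1 to 2.4, against 42.2, 47.9, 55.5 and 57.2 CPM in young libraries 2.1 to 2.4. In experiment 1 it measured 18.7, 15.2 and 9.77 CPM in aged libraries, against 15.6, 18.0 and 16.1 CPM in young libraries. In both experiments the aged values lay on either side of all young ones, so that the young libraries were the more uniform. The log2 fold change was −0.08 (SE 0.175). It was 0.02 without aged 1.3 and 0.21 with the leukocyte marker level as a term, so its sign depended on both.

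The SOXF genes gave no shared direction. Sox7 ranged from 220.5 to 348 CPM in aged libraries with a median of 260.5 CPM, against 234 to 518 CPM with a median of 251 CPM in young libraries. The young mean was drawn up by young 2.3 (441 CPM) and young 2.4 (518 CPM), and the ages overlapped in both experiments (log2 fold change −0.16, SE 0.163). Sox18, which in mice acts in lymphatic specification, ranged from 127 to 349 CPM in aged libraries with a median of 208 CPM, against 87.7 to 286 CPM with a median of 162 CPM in young libraries. Its log2 fold change of 0.26 (SE 0.241) was the highest of the 10, with a 95% fold interval of 0.839 to 1.72, and 5 of 7 aged libraries lay above the young mean of their experiment. The 2 SOXF genes with ample reads thus differed in sign, neither beyond its error. Sox17, known for arterial endothelium, had the fewest reads of the 10, with 33 to 72 in each library. It ranged from 2.99 to 5.66 CPM in aged libraries with a median of 3.80 CPM, against 3.30 to 5.99 CPM with a median of 4.59 CPM in young libraries. The groups overlapped in both experiments and the log2 fold change was −0.20 (SE 0.236) with a 95% fold interval of 0.612 to 1.23, so a difference inside that range could not be told from the spread between these libraries.

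Tal1 and Lmo2 encode partners in 1 protein complex. Tal1 ranged from 13.3 to 41.3 CPM in aged libraries with a median of 35.3 CPM, against 28.8 to 44.8 CPM with a median of 34.4 CPM in young libraries. Aged 2.4 (13.3 CPM) and aged 1.3 (21.3 CPM) stood below all other libraries, and the remaining aged libraries fell within the young range. The log2 fold change was −0.23 (SE 0.218). Erythroid markers, which mark another cell type that uses Tal1, summed to 3.92 to 44.9 CPM in the aged group and to 3.54 to 31.5 CPM in the young group, and Klf1, an erythroid factor, had at most 3 reads in any library.

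The fitted age difference of Lmo2 had opposite signs in the 2 experiments. In experiment 2 it measured 336, 287, 264 and 282 CPM in aged libraries 2.1 to 2.4, against 237, 205, 285 and 236 CPM in young libraries 2.1 to 2.4. In experiment 1 it measured 195, 222 and 155 CPM in aged libraries, against 201, 269.8 and 228 CPM in young libraries. In experiment 2, 4 of 4 aged libraries lay above the young mean. In experiment 1, 3 of 3 lay below it, and the ages overlapped in each. The log2 fold change was 0.28 (SE 0.148) in experiment 2 and −0.29 (SE 0.171) in experiment 1. The test of the difference gave 0.57 (SE 0.226, 95% interval 0.08 to 1.06, unadjusted p = 0.0264, adjusted p = 0.9998 by edgeR). Lmo2 was the only member with an unadjusted p under 0.05 in that test, 2.18% of all tested targets reached it, and edgeR called 0% of them. Over both experiments the fold change was 0.04 (SE 0.132) on the log2 scale.

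Mecom, the zinc finger factor EVI1, ranged from 15.2 to 46.3 CPM in aged libraries with a median of 39.2 CPM, against 24.6 to 54.7 CPM with a median of 37.0 CPM in young libraries. The lowest value was again that of aged 1.3 (15.2 CPM), and the other aged libraries lay inside the young range. The log2 fold change was −0.06 (SE 0.239), and 0.07 without aged 1.3. The target carries 1 accession of a locus with several transcripts, so the longer MDS1-EVI1 form was not measured apart.

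Within each experiment edgeR called no member: 0.00706% of all targets (1) were called in experiment 2 and 0% in experiment 1. An unadjusted p under 0.05 was reached by 0 members in experiment 2, against 2.79% of all targets, and by Tfec in experiment 1, against 6.45%. Fitted values were lower in aged libraries for 6 of 10 members in experiment 2, where Gata2 turned lower with DESeq2 size factors, and for 9 of 10 in experiment 1, where Sox7 and Tal1 turned higher without TMM. Without aged 1.3, 5 of 10 were lower in experiment 1, where Gata2 (0.03), Gata4 (0.02), Mecom (0.21) and Tal1 (0.08) then had positive log2 values. With the leukocyte marker level as a term 6 of 10 were lower in experiment 1, and without young 2.3, 4 of 10 were lower in experiment 2. Omitting TMM moved the median of all targets in experiment 1 to 0.17, against 0.04 with TMM. One sign in both experiments was shown by 7 of 10 members, and by 52.2% of all tested targets.

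**Figure D2:**
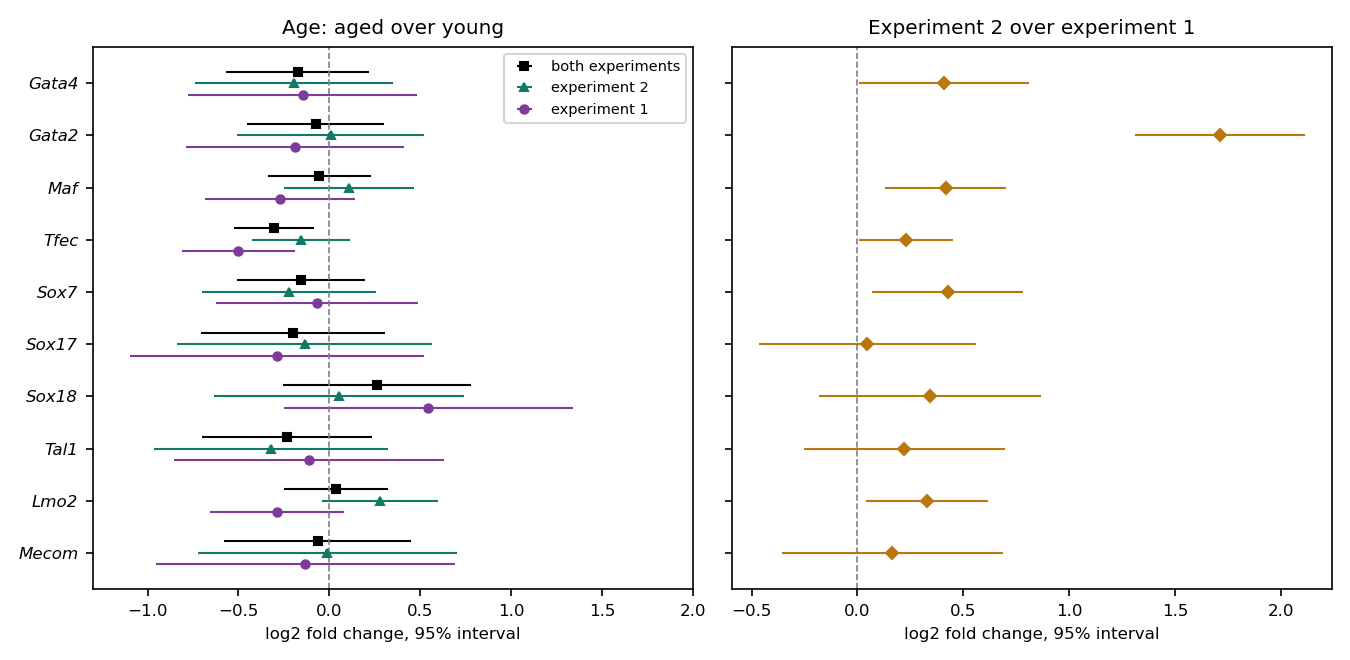
Log2 fold change of each factor with its 95% interval. The left panel gives aged over young in both experiments (squares), experiment 2 (triangles) and experiment 1 (circles), and the right panel experiment 2 over experiment 1 (diamonds). On the left the combined interval of Tfec alone stays off 0, and on the right the interval of Gata2 lies beyond those of the other 9 factors.

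The larger contrast among these genes lay between the experiments. This comparison was added after the values had been seen. Gata2 averaged 50.8 ± 10.9 CPM in experiment 2 (SD, n = 8) and 15.5 ± 3.14 CPM in experiment 1 (SD, n = 6). The lowest library of experiment 2 (37.8 CPM) stood above the highest library of experiment 1 (18.7 CPM), and experiments that do not overlap were found in 2.17% of all tested targets. The fold of experiment 2 over experiment 1 was 3.27 (95% interval 2.48 to 4.32; log2 1.71, SE 0.186, adjusted p = 0.00199 by edgeR with age as a term). Gata2 was 1 of 10 members called, against 7.79% of all tested targets (1103). It stayed called under each of the alternatives run, with adjusted p-values of 1.44e-14 to 0.0131 and log2 values of 1.59 to 1.79. Of the aged libraries alone the difference was 1.81 (adjusted p = 0.0433 by edgeR, with 1.23% of targets called), and of the young libraries alone 1.61 (adjusted p = 0.243 by edgeR, with 0% called).

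All 10 members had higher fitted values in experiment 2, though Sox17 turned lower without TMM and with DESeq2 size factors, and 59.1% of all tested targets were higher there. That background share was 48.2% without TMM, 53.0% with DESeq2 size factors and 46.9% without young 2.1, and the median of all targets was 0.12 with TMM and −0.02 without it. Maf differed by 0.42 (SE 0.133, adjusted p = 0.067), Sox7 by 0.43 (SE 0.166), Gata4 by 0.41 (SE 0.187), Lmo2 by 0.33 (SE 0.134) and Tfec by 0.23 (SE 0.103) on the log2 scale. None of these 5 was called by edgeR, although each had an unadjusted p under 0.05, as did 31% of all targets. DESeq2 and limma-voom called Maf besides Gata2, with 2006 and 4649 of 14168 targets called. Without aged 2.4 edgeR called 3 members, against 5057 of 14337 targets. Without young 2.2 it called 5, against 4029 of 14242 targets, and without both it called 7, against 7738 of 14202 targets. The count of members, like that of all targets, was thus higher without either or both of these libraries. Leaving out other libraries lowered the count of all targets, to as few as 167 of 14321 without young 2.1. With the receptor read share as a term Gata4 (−0.04), Sox17 (−0.08) and Tal1 (−0.21) turned lower in experiment 2, while Gata2 kept a log2 difference of 1.71 and stayed called. Aged 2.4 and young 2.2, whose receptor shares lay in the range of experiment 1, held Gata2 at 66.6 and 47.9 CPM. The most in experiment 1 was 18.7 CPM. The part of receptor reads in the Gata2 values was not tested beyond the fit with their share as a term. Other measures differed between the experiments too. The lymphatic endothelial markers, a cell type that uses Gata2, summed to 4.87 to 28.8 CPM in experiment 2 and to 1.32 to 7.17 CPM in experiment 1. Only 1 of the 3 matched markers passed the filter, so this sum is a weak measure of that cell type. Prox1 was at 9.58 ± 6.14 CPM in experiment 2 (SD, n = 8) and 3.16 ± 1.52 CPM in experiment 1 (SD, n = 6). Which cells the Prox1 reads came from was not tested. Hepatocyte marker sums had a median of 1203 CPM in experiment 2 and 522 CPM in experiment 1. The mast cell and basophil markers summed to 3.10 to 79.6 CPM with a median of 12.4 CPM in experiment 2, and to 14.3 to 43.7 CPM with a median of 33.8 CPM in experiment 1. The part of these cells in the Gata2 values was not tested.

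Members were then set against each other over the 14 libraries, on log2 CPM less the mean of the experiment. With the receptor read share and the leukocyte marker level this made 65 relations. Permutations within experiments (100000) gave adjusted p-values under 0.05 for 2 of them. Lmo2 followed Maf with Pearson's r of 0.907 (permutation p = 0.00019, adjusted 0.0123) and Spearman's rho of 0.833 (permutation p = 0.00103, adjusted 0.0669). Without aged 1.3 and young 2.2, the libraries farthest out in Maf, r was 0.793, and it was 0.834 within experiment 2 and 0.974 within experiment 1. Both values come from the same libraries and share their depth and composition.

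Gata2 ran against the leukocyte marker level, the mean log2(CPM + 1) of the Kupffer, B cell and T and NK cell markers. Pearson's r was −0.894 (permutation p = 0.00069, adjusted 0.0224) and Spearman's rho −0.653 (permutation p = 0.0195, adjusted 0.332). It was −0.771 without aged 1.3 and aged 2.2, the 2 libraries farthest from the median, and −0.895 within experiment 2 and −0.901 within experiment 1. In experiment 2 the 3 libraries with the highest leukocyte level, aged 2.2 (3.61), aged 2.1 (3.14) and young 2.1 (2.72), held the 3 lowest Gata2 levels of 38.2, 37.8 and 42.2 CPM. In experiment 1 aged 1.3, at 4.52, held the lowest Gata2 level of 9.77 CPM, and the other 5 libraries lay close together. Of those 5, aged 1.1 had both the highest leukocyte level (1.98) and the highest Gata2 level (18.7 CPM). The r within experiment 1 thus rested on aged 1.3. The rank measure missed the threshold after adjustment.

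**Figure D3:**
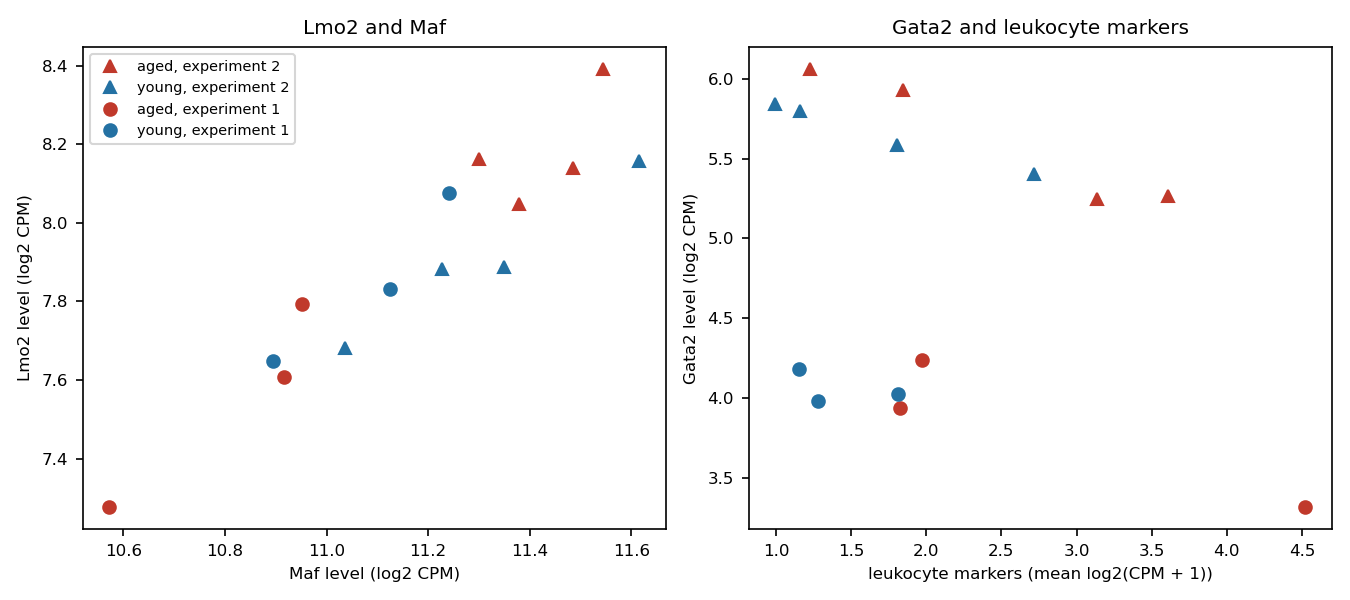
The left panel plots Lmo2 against Maf (both log2 CPM) and the right panel Gata2 (log2 CPM) against the leukocyte marker level (mean log2(CPM + 1)), with 1 point per library, aged in red, young in blue, triangles for experiment 2 and circles for experiment 1. Lmo2 rises with Maf along 1 band in both experiments (r 0.907 after centring on the experiment). Gata2 forms 2 groups, 1 per experiment. In experiment 2 Gata2 falls to the right (r −0.895), whereas in experiment 1 the r of −0.901 rested on aged 1.3.

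Other relations between members were weaker. Tal1 and Gata4 gave r of 0.724 (permutation p = 0.00943, adjusted 0.204), and only 0.0857 without aged 1.3 and aged 2.4, so that relation rested on those libraries. Gata4 ran against the receptor read share (r −0.700, permutation p = 0.0171, adjusted 0.222). The 3 SOXF genes gave r of 0.137 for Sox17 and Sox7, 0.101 for Sox18 and Sox17 and −0.110 for Sox18 and Sox7, and Lmo2 and Tal1 gave 0.136, none passing the permutation test (adjusted p of at least 0.873).

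Among 11746 targets with a mean of at least 5 CPM, the gene whose centred level was most like that of each member over the 14 libraries was named, as a description without a test. It was Nkiras1 for Gata4 (r 0.950), Rbpms for Gata2 (r 0.838), Maf for Lmo2 (r 0.907) and Nrp1 for Maf (r 0.941). For Tfec it was Fubp3 (r 0.936), for Sox7 Cdk5rap2 (r 0.918), for Sox18 Clec14a (r 0.881) and for Sox17 Ufl1 (r 0.731). For Tal1 it was Ushbp1 (r 0.976) and for Mecom Tmem33 (r 0.853). Lmo2 was the only member whose nearest gene was another member.

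The relatives and partners of these factors, taken from lists by family, gave 0 calls in the age comparison by edgeR. Of the GATA and FOG relatives 3 of 6 were tested, 1 higher and 2 lower in aged libraries. Zfpm1, which encodes the GATA cofactor FOG1, had a mean of 222 ± 43.5 CPM in the aged group and 286 ± 51.4 CPM in the young group (SD, n = 7 each), a log2 fold change of −0.37 (unadjusted p = 0.0165, adjusted p = 0.629 by edgeR). Gata1, Gata3 and Gata6 failed the filter, with at most 2, 38 and 19 reads in a library, and Gata5, which passed it, had at most 30. Of 8 tested MAF and MiT relatives 5 were higher and 3 lower (median 0.05), and the small MAF gene Maff had the smallest p (6.38 ± 3.74 CPM in the aged and 20.8 ± 19.7 CPM in the young group, log2 −1.78, unadjusted p = 0.0166 by edgeR). Of 8 tested SOX and PRDM relatives 6 were higher and 2 lower (median 0.15), with Prdm16, the nearest relative of Mecom, at log2 −0.56 (unadjusted p = 0.0179 by edgeR).

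The TAL1-LMO2 complex partners were likewise mixed, with 6 of 10 tested genes higher, 4 lower and a median of 0.03. Ldb1, the dimerising partner of LMO2, had a log2 fold change of 0.20 (unadjusted p = 0.0369 by edgeR) and was called without TMM scaling (0.26, adjusted p = 0.0442 by edgeR). Lmo4 had −0.23 (unadjusted p = 0.0326 by edgeR). Among 17 other endothelial lineage regulators 7 were higher and 10 lower (median −0.01). Foxp1 had 0.33 (unadjusted p = 0.0279 by edgeR), Nr2f2, a venous factor, had −0.29 (unadjusted p = 0.134), and Runx1, a factor of blood cells, had 2.41 (unadjusted p = 0.0529). Runx1 was highest in aged 1.3 (46.7 CPM) in experiment 1 and in aged 2.2 (29.7 CPM) in experiment 2, which also had the highest leukocyte marker level of their experiment. Whether that level has a part in the Runx1 values was not tested.

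Genes of the sinusoidal and of the continuous capillary type were read from the same fit. Of 15 sinusoidal genes 5 were higher and 10 lower in aged libraries (median −0.09), with Clec1b at 0.45 (unadjusted p = 0.0078), Fcgr2b at 0.58 (unadjusted p = 0.0162) and the hyaluronan receptor gene Lyve1 at −0.68 (unadjusted p = 0.0245). Of 11 continuous capillary genes 4 were higher and 7 lower (median −0.28), with the diaphragm protein gene Plvap at −0.62 (unadjusted p = 0.00529), Fabp4 at −0.62 (unadjusted p = 0.0397) and Emcn at −0.28 (unadjusted p = 0.071). These p-values are edgeR's, and the adjusted ones were 0.460 or above. By fitted value 7 of 7 tested Kupffer markers (median 1.75) and 3 of 3 tested B cell markers (median 3.07) were higher in aged libraries, each with an unadjusted p under 0.05 and none called by edgeR. The part of these cells in the Clec1b and Fcgr2b values was not tested. Of 5 tested T and NK cell markers 4 were higher and 1, Gzma (log2 −1.66), lower (median 0.65), and 0 of 5 had an unadjusted p under 0.05. In aged libraries 6 of 6 tested hepatocyte markers were higher (median 0.77) and 4 of 4 endothelial markers lower (median −0.16). Neither of these lists held an unadjusted p under 0.05 by edgeR.

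**Figure D4:**
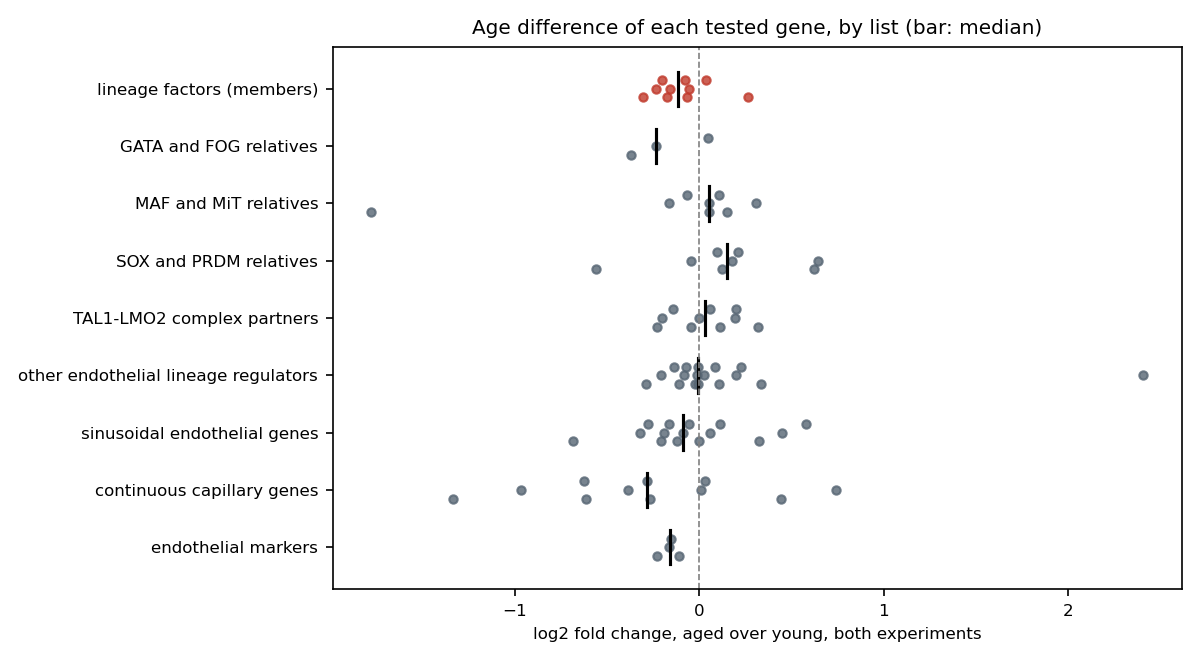
Log2 fold change, aged over young in both experiments, of each tested gene, grouped by list, with a black bar at the median of each list. The 10 lineage factors (red) lie between −0.30 and 0.26 with a median of −0.12, a span narrower than that of most lists of relatives, and the 1 point near 2.41 is Runx1.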

How the data were processed

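RNA of sorted LSECs was amplified with the Ion AmpliSeq mouse transcriptome panel, per the labels' protocols, which reads 1 short amplicon per target. The authors deposited raw read counts per RefSeq target, in a file of its own for each library. HTSeq 0.6.0 and DESeq2 1.18.1 are named in the submitters' processing notes. The sources used here do not give the aligner, genome build, strand setting or duplicate handling, and without molecular identifiers a count is no number of molecules. The 5 bookkeeping entries of the counter (1.24 to 3.04% of reads) stayed out of library sizes and tests. Of 23930 targets, 18128 matched a RefSeq symbol (GRCm38.p6) with version, 4324 without and 110 through GENCODE; 1368 stayed unnamed but were tested.

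Counts were filtered by filterByExpr (14168 targets), scaled by TMM and tested with edgeR 4.0.16 in R 4.3.3 (quasi-likelihood, experiment and age, Benjamini-Hochberg, threshold 0.05). A 4-group model gave the age effect within experiments and its difference; the experiment term was read after values had been seen. SEs come from fold change and F statistic. Alternatives used DESeq2 1.42.0, limma 3.58.1 (voom), other scaling, no filter, added terms and omitted libraries. Correlations used SciPy 1.17.1. Aged 1.1 and 1.2 were the most alike pair (chi-square per degree of freedom 6.46, other pairs of a group 19.8 or more). They differed by more than sampling noise, which cannot show that they stem from separate animals. They were kept as separate samples, and their sum was run as an alternative. On simulated counts for the combined age comparison (14059 genes), 5, 20, 39 and 41 of 50 genes changed 1.5-, 2-, 4- and 8-fold were recovered, with 4 false calls.

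Members and lists were chosen with earlier results of these data known. Named genes were all members, called genes of each list or else its 3 smallest p-values above a mean of 1 CPM, the gene most like each member at a mean of 5 CPM or more, and defining markers. List genes without a matched target (Meis1, Ly6c1, Cd79a, Trac, Serpina1a and Ccl21a) are not analysed here. Besides what is shown, 1 further coding stretch and 1 further relative are not reported here.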

Additional observations from a re-analysis of the deposited data

Results flagged for a closer look

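2 values of the lineage factors stood out. Among the 4 aged libraries of experiment 2, Sox17 in aged 2.1 lay at 5.66 CPM, far from the other 3, which measured 3.64, 3.80 and 3.81 CPM. Its gap to the nearest was 0.919 of the whole range, above Dixon's critical value of 0.829. It rests on 50 reads, and of 40 such groups of 4 or more libraries this was the only one past its critical value, where chance gives about 1 in 20.

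For Lmo2 the age difference (aged over young) was higher in experiment 2 than in experiment 1 by 0.57 on the log2 scale (SE 0.226, unadjusted p = 0.0264 by edgeR's quasi-likelihood test of the difference). It did not pass adjustment over all targets (adjusted p = 0.9998 by edgeR), and DESeq2 and limma-voom called no member in that test. In experiment 2, 4 of 4 aged libraries lay above the young mean, and in experiment 1, 3 of 3 lay below it.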

How the results depend on the processing

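No member passed the age test over both experiments under any alternative with edgeR or limma-voom, while DESeq2 called 1, Tfec. The list genes, with 0 calls, had 1 without TMM (Ldb1) and 3 with DESeq2 (Cd163, Folr2 and Vsig4). The count of all targets called for age, 23 (11 higher and 12 lower), was 46 without TMM (28 higher and 18 lower), 12 without the experiment term, 59 with the receptor read term, 4 with the leukocyte marker term, 36 without young 2.2 and aged 2.4, 4 with aged 1.1 and aged 1.2 summed and 146 with DESeq2. Leaving out 1 library gave 4 to 29, with the lowest counts (4) without aged 1.1 or aged 1.2, 5 without aged 2.1 or young 2.4, 8 without aged 2.2, 9 without aged 2.3 or young 1.3, 10 without young 1.1 and 11 without young 2.3. With the replicate number as a block 5 targets and no member were called; numbers in common did not pair the libraries (correlations of same-numbered deviations −0.385 to 0.776, with 6 of 14 libraries closest to their own number).

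For experiment 2 over experiment 1, with 1103 targets called, the count was 615 without TMM, 671 with DESeq2 size factors, 367 without a filter, 192 with the receptor read term, 325 with aged 1.1 and aged 1.2 summed, 7738 without young 2.2 and aged 2.4, 4649 with limma-voom and 2006 with DESeq2, and 167 (without young 2.1) to 5057 (without aged 2.4) with 1 library left out. It was 4029 without young 2.2, 309 without aged 1.1, 310 without aged 1.2, 358 without young 1.3, and between 487 and 592 without aged 2.1, aged 2.3, young 1.1, young 2.3 or young 2.4. Members called, 1 in the main comparison, were 7 without young 2.2 and aged 2.4, 2 with limma-voom, 2 with DESeq2, and 1 to 5 with 1 library left out, 3 of them without aged 2.4 and 5 without young 2.2. This comparison and its alternatives were chosen after the values had been seen.

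Some small, uncalled log2 values changed sign, and the cause was not tested. In both experiments, Maf was 0.0088 without TMM. The leukocyte term gave 0.21 for Gata2, 0.040 for Maf and 0.16 for Mecom. Without young 2.2 and aged 2.4 Lmo2 was −0.031. With 1 library left out Gata2 ranged from −0.17 to 0.016, Lmo2 from −0.025 to 0.12, Maf from −0.11 to 0.0082 and Mecom from −0.16 to 0.073. In experiment 2, Gata2 was −0.023 with DESeq2 size factors, −0.013 without a filter, −0.18 without young 2.2 and aged 2.4 and −0.022 with DESeq2. Mecom was 0.20 with the leukocyte term, 0.12 without young 2.2 and aged 2.4 and 0.083 with limma-voom, and Sox18 was −0.0082 with the receptor term. With 1 library left out Gata2 ranged from −0.15 to 0.12, Mecom from −0.18 to 0.20, Sox17 from −0.32 to 0.0067 and Sox18 from −0.28 to 0.25. In experiment 1, the leukocyte term gave 0.20 for Gata2, 0.10 for Mecom and 0.13 for Sox7, and omitting TMM gave 0.063 for Sox7 and 0.0065 for Tal1. With 1 library left out Gata2 ranged from −0.41 to 0.032, Gata4 from −0.31 to 0.025, Mecom from −0.34 to 0.21, Sox7 from −0.13 to 0.034 and Tal1 from −0.25 to 0.085. For experiment 2 over experiment 1, Sox17 was −0.082 without TMM, −0.036 with DESeq2 size factors, −0.049 without a filter, −0.081 with the receptor term and −0.043 with DESeq2, and −0.037 to 0.18 with 1 library left out. The receptor term also gave −0.042 for Gata4 and −0.21 for Tal1. Tfec kept its sign for age under every alternative run, as did Lmo2 within each experiment. Sox17 rests on 33 to 72 reads a library.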
